A study of Danio rerio with 5 samples.

Results

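CircRNAs whose back-splice ends lie less than 500 bp apart in the genome were taken from 5 libraries of whole zebrafish embryos. The span was end minus start plus 1, read from the deposited positions, and chromosome 4 was left out throughout. The selection held 923 short circRNAs, 9.97% of the 9259 circRNAs listed in at least 1 library, and the other 8336 had spans of 500 bp or more. The embryos were wild type, of the strain the labels spell Tubingenz, and were staged by morphology. The stages, with 1 library each, were the blastula at 4.5 h after fertilization, the gastrula at 8 h, segmentation at 24 h, a stage labelled throat at 48 h and one labelled incubation at 72 h. Each was made from ribosomal RNA-depleted total RNA of embryos. No source used here says how many embryos were pooled. With 1 library per stage, no difference between stages has a replicate check, and the intervals below, all at 95%, cover counting error only.

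A circRNA is a closed RNA ring made when the spliceosome joins a downstream splice donor to an upstream acceptor. A ring can hold a single exon or several, and the span of a ring of several exons takes in the introns between them, so a short span leaves room for few exons. Rings have no free ends and resist exonucleases, which is why they can outlast linear RNA. In zebrafish the early embryo carries RNA laid down by the mother until its own genome becomes active, and the blastula library falls near that handover. The deposited tables name neither a gene nor a strand for any circRNA, and no genome of their build was used, so the circRNAs are named by position and no host gene or sequence is given. Whether each listed junction, including those with the shortest spans and those of the mitochondrial genome, comes from a spliced ring was not tested.

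Short circRNAs made up a similar part of the list at every stage, with the highest share at 48 h. They numbered 266 of 2746 circRNAs at 4.5 h, 284 of 2959 at 8 h, 153 of 1782 at 24 h, 288 of 2477 at 48 h and 187 of 2180 at 72 h. These were shares of 9.69% at 4.5 h (exact Clopper-Pearson interval 8.61 to 10.9), 9.60% at 8 h (8.56 to 10.7), 8.59% at 24 h (7.33 to 9.98), 11.6% at 48 h (10.4 to 13.0) and 8.58% at 72 h (7.44 to 9.83). The interval at 48 h lay above those at 24 and 72 h and overlapped those at 4.5 and 8 h. Among circRNAs with at least 5 reads the share was again highest at 48 h, at 10.9% (8.599 to 13.6), but its interval then overlapped those of the other 4 libraries. Each circRNA counts as an independent unit in these intervals.

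Measured in junction reads, the short circRNAs weighed far more at 8 h than at any other stage, and a pair of them on scaffold KN150127.1 accounted for most of that. They held 1663 of 19990 junction reads at 4.5 h (8.32%), 9800 of 24065 at 8 h (40.7%), 630 of 9399 at 24 h (6.70%), 1437 of 15529 at 48 h (9.25%) and 2064 of 18385 at 72 h (11.2%). Scaled to depth with the authors' score, named SRPBM in the file headers, their summed level was 168 at 4.5 h, 854 at 8 h, 64.9 at 24 h, 146 at 48 h and 252 at 72 h. The circRNA at KN150127.1:3657-4045 had 4398 reads at 8 h and the one at 15984 to 16405 had 4025, together 85.9% of all reads on short circRNAs in that library. Without the scaffold the shares of reads were 8.14% at 4.5 h (7.76 to 8.52), 8.82% at 8 h (8.38 to 9.28), 6.67% at 24 h (6.17 to 7.19), 9.38% at 48 h (8.90 to 9.88) and 4.56% at 72 h (4.25 to 4.89). The 8 h library then no longer stood apart, and 72 h was lowest, with an interval below those of the other 4 libraries. The summed level without the scaffold was 164 SRPBM at 4.5 h (156 to 172), 120.04 at 8 h (114 to 127), 64.5 at 24 h (59.5 to 69.7), 133 at 48 h (126 to 141) and 91.7 at 72 h (85.3 to 98.6). Longer circRNAs without the scaffold had 1851 SRPBM at 4.5 h, 1241 at 8 h, 903 at 24 h, 1286 at 48 h and 1920 at 72 h (exact Poisson interval 1889.8 to 1949.97 at 72 h). Without the scaffold, the summed level of short circRNAs was thus lower at 72 h than at 48 h, and that of longer ones was higher.

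**Figure D1:**
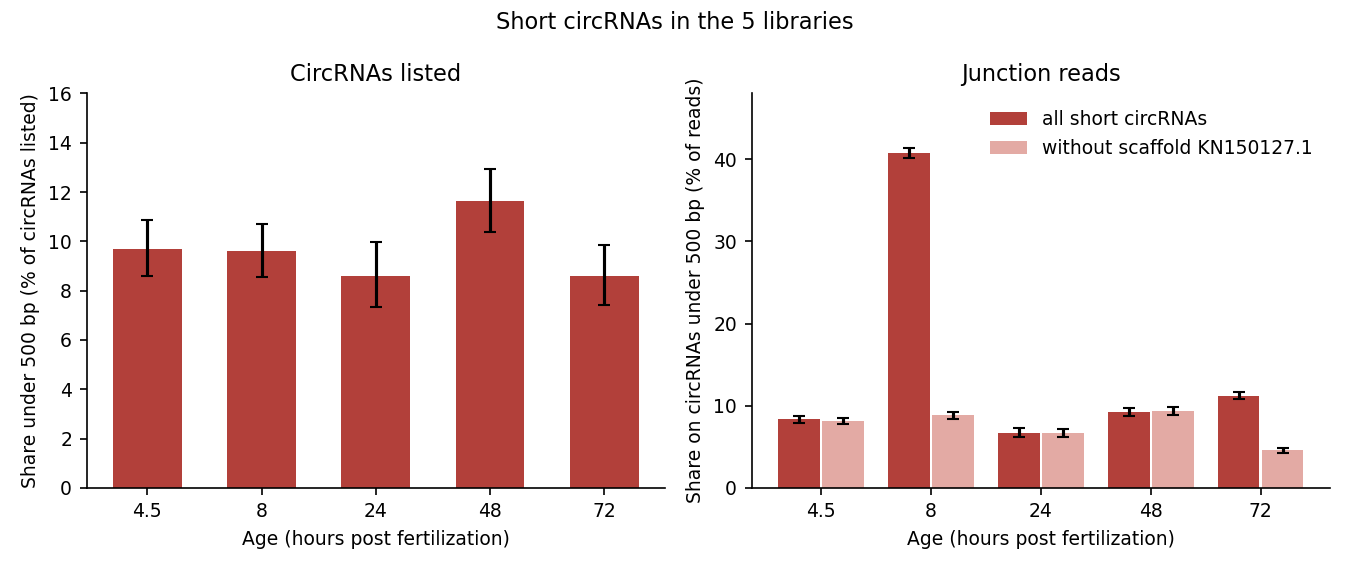
Left, share of listed circRNAs with a span under 500 bp in each library; right, share of junction reads on them, with and without scaffold KN150127.1. Bars are 1 library each and error bars are exact 95% intervals; the 40.7% of reads at 8 h became 8.82% without the scaffold, and the 11.2% at 72 h became 4.56%.

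Most short circRNAs were near the detection limit, as were longer ones. The median was 3 reads in every library for both the short and the longer circRNAs. The lowest listed count, 2 reads, was found for 35.3% of short circRNAs at 4.5 h, 35.2% at 8 h, 47.7% at 24 h, 36.8% at 48 h and 44.9% at 72 h, and for 31.2% to 48.9% of longer ones. Over all libraries, 60 short circRNAs reached 10 reads in some library (6.501%, 4.997 to 8.29), against 611 longer ones (7.33%, 6.78 to 7.91). Only 17 reached 20 reads.

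The spans were not spread evenly below 500 bp. Their median was 310 bp, and the number of circRNAs was 63 under 100 bp, 170 from 100 to 199, 200 from 200 to 299, 239 from 300 to 399 and 251 from 400 to 499 bp. In bins of 50 bp the count was highest at 400 to 449 bp, with 132, and at 500 to 549 bp it was 100, so the limit cut through a continuous range of spans. The shortest were chr16:42037202-42037225, with 24 bp, chr16:54130152-54130177, with 26 bp, and chr1:6451356-6451384, with 29 bp. The first of these had 11 reads at 24 h and 19 at 48 h and was not listed elsewhere, and the other two had 3 reads each, at 8 h. Just inside the limit, chr11:9339967-9340465 spanned 499 bp with 3 reads at 24 h, and chr1:34024750-34025247 spanned 498 bp with 2 reads at 8 h and 6 at 48 h. chr13:1971841-1972338 also spanned 498 bp, with 3 reads at 48 h. Just outside, each spanning 500 bp, chr12:10687506-10688005 had 3 reads at 8 h and 2 at 72 h, chr18:45828065-45828564 had 3 at 48 h, and the mitochondrial 7023 to 7522 had 2 at 4.5 h.

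Among short circRNAs, spans under 200 bp had their highest share in the blastula library. Spans under 200 bp made up 29.7% of its short circRNAs (24.3 to 35.6), 22.9% at 8 h (18.1 to 28.2), 22.9% at 24 h (16.5 to 30.4), 16.3% at 48 h (12.2 to 21.1) and 20.9% at 72 h (15.3 to 27.4). The interval at 4.5 h lay above that at 48 h and overlapped those at 8, 24 and 72 h. Spans under 100 bp did not follow this order, with 14, 19, 12, 14 and 12 circRNAs listed from 4.5 to 72 h. The median span of short circRNAs was 291.5 bp at 4.5 h, 315.5 bp at 8 h, 324 bp at 24 h, 347 bp at 48 h and 325 bp at 72 h.

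Spans under 200 bp were multiples of 3 more often than longer ones. An exon whose length is divisible by 3, the size of a codon, can be skipped without a shift of the reading frame, and the span equals the exon length where the ring holds a single exon. Among the 233 circRNAs under 200 bp, 111 had a span divisible by 3 (47.6%, 41.1 to 54.3), 59 left a remainder of 1 and 63 a remainder of 2. From 200 to 499 bp the share was 34.5% (30.9 to 38.2), and among all circRNAs of 500 bp or more it was 33.7% (32.7 to 34.7). Over all 923 short circRNAs it was 37.8% (34.7 to 41.0). Among them it was 32.5% for the 154 listed in 2 or more libraries (25.2 to 40.5) and 38.9% for the 769 listed in 1 (35.4 to 42.4). These groups were not matched for span, and the 154 held 6 circRNAs under 100 bp and 15 from 100 to 199 bp. Below 200 bp the share was 64.4% for the 45 circRNAs that reached 5 reads in a library (48.8 to 78.1) and 43.6% for the 188 that did not (36.4 to 51.0). These 2 intervals overlapped. Each library showed the higher share below 200 bp, with 48.1% at 4.5 h, 40% at 8 h, 65.7% at 24 h, 51.1% at 48 h and 61.5% at 72 h. The interval at 8 h (28.0 to 52.9) took in the share of the longer circRNAs. Spans of 200 to 499 bp gave 36.9%, 32.4%, 28.0%, 31.5% and 28.4% in the same order of libraries. Their intervals lay below those under 200 bp at 24 and 72 h and overlapped them at 4.5, 8 and 48 h. Even spans gave no such pattern, at 49.4% under 200 bp (42.8 to 56.0) and 49.4% at 500 bp or more (48.4 to 50.5). Divisibility was looked at after the spans had been seen, and whether these rings hold a single exon was not tested.

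**Figure D2:**
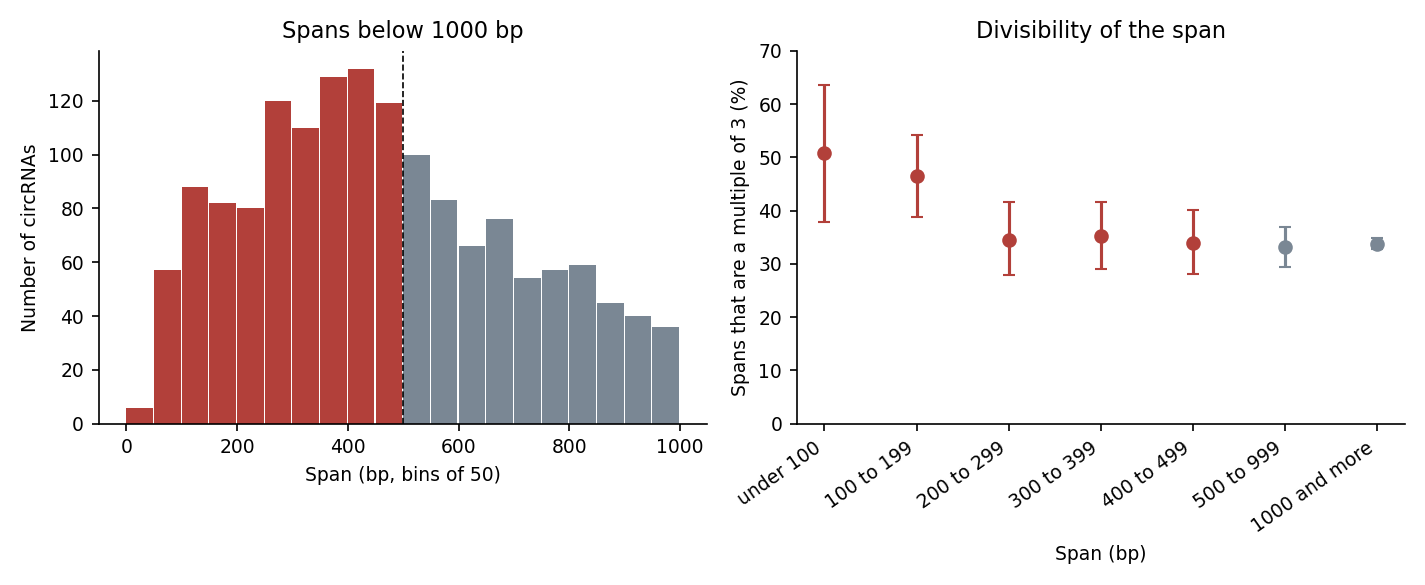
Left, number of circRNAs in bins of 50 bp of span, with a dashed line at 500 bp (red below, grey above); right, percentage of spans that are multiples of 3 in each band of span, with exact 95% intervals. The share was 50.8% under 100 bp and 46.5% from 100 to 199 bp, and it lay between 33.1% and 35.1% in every band from 200 bp upwards.

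Ranked by reads, KN150127.1:3657-4045 led the short circRNAs at 8, 48 and 72 h, and other circRNAs led at 4.5 and 24 h. At 4.5 h the leader was chr16:32233692-32234165 (474 bp), with 389 reads, or 39.3 SRPBM (35.5 to 43.4) and 23.4% of all reads on short circRNAs there. It had 16 reads at 8 h, 36 at 24 h, 13 at 48 h and 5 at 72 h. Second came chr17:3349985-3350375 (391 bp), with 48, 81, 7, 2 and 4 reads from 4.5 to 72 h. Also among the first 5 at 4.5 h were chr14:24794318-24794674 (28 reads, listed there alone), chr6:45909025-45909411 (27 reads, then 7 at 8 h), and chr10:22940624-22941045 (23, 9, 7, 5 and 4 reads). At 8 h the scaffold pair was followed by chr1:25967354-25967612 (259 bp), with 143 reads. That circRNA led the 24 h library with 67 reads, was not listed at 4.5 or 48 h, and had 17 reads at 72 h. Also among the first 5 at 8 h was chr24:29130286-29130771, with 26 reads there, 23 at 4.5 h and 2 at 48 h.

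At 24 h no short circRNA passed 67 reads. After the leader came chr16:32233692-32234165, with 36 reads, and chr15:11886656-11887060, with 16, which was otherwise listed only at 8 h with 11. chr16:44716469-44716755 (287 bp) had 18, 5, 14, 6 and 4 reads from 4.5 to 72 h. The 60 bp circRNA of chr6:60017750-60017809 had 13 reads at 24 h and was listed nowhere else. At 48 h, KN150127.1:3657-4045 led with 129 reads, ahead of chr6:39312756-39313067 (98 reads), chr19:41413107-41413353 (86), and chr6:52816786-52817273 (31). These 3 were listed at 48 h alone. The 24 bp circRNA of chromosome 16 came next, with 19 reads. At 72 h the scaffold circRNA had 1312 reads, 63.6% of the reads on short circRNAs. Behind it were chr7:29689001-29689068 (68 bp, 54 reads), KN150442.1:35836-35898 (63 bp, 28 reads), and chr20:49748344-49748702 (359 bp, 17 reads), each listed at 72 h alone. Among the 17 short circRNAs that reached 20 reads, 6 belonged to a single library and 4 to all 5.

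**Figure D3:**
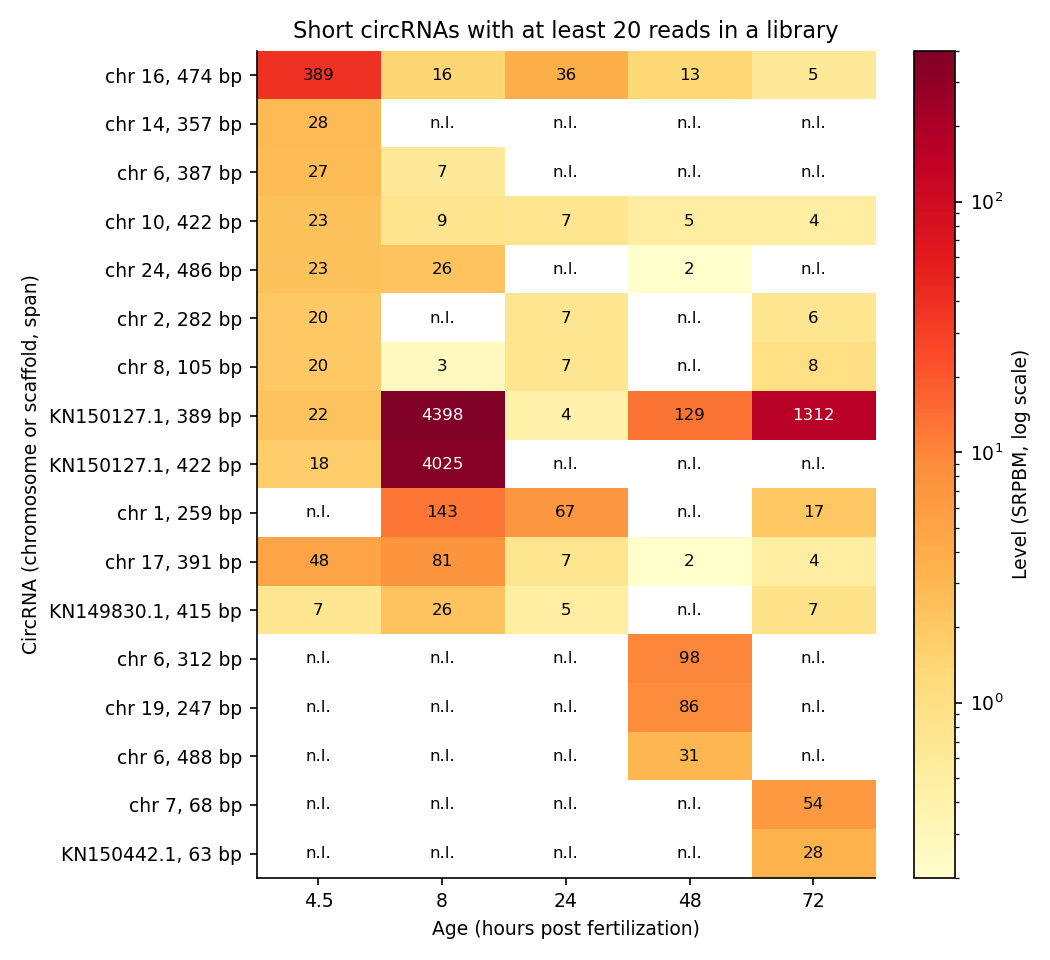
The 17 short circRNAs with at least 20 junction reads in some library (rows, named by chromosome or scaffold and span) in the 5 libraries (columns); colour is the SRPBM level on a log scale, printed numbers are junction reads, and n.l. means not listed. The 2 circRNAs of scaffold KN150127.1 had 4398 and 4025 reads at 8 h, while 5 circRNAs appeared at 48 or 72 h alone.

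Most short circRNAs were listed at a single stage. Of the 923, 769 were found in 1 library alone (83.3%, 80.8 to 85.7), 92 in exactly 2, 35 in exactly 3, 15 in exactly 4, and 12 at every stage. Listing in 2 or more libraries was found for 154 short circRNAs (16.7%, 14.3 to 19.2) and for 1634 longer ones (19.6%, 18.8 to 20.5). Listing at several stages went with the number of reads. Among circRNAs whose highest count was 2 reads, 2.45% of the short ones (1.12 to 4.59) and 4.37% of the longer ones (3.70 to 5.12) were listed more than once. At 3 to 4 reads it was 13.2% of the short and 15.7% of the longer ones, at 5 to 9 reads 37.9% of the short and 39.7% of the longer ones, and at 10 to 19 reads 72.1% of the short and 70.3% of the longer ones. At 20 or more reads 11 of 17 short circRNAs (64.7%, 38.3 to 85.8) and 193 of 251 longer ones (76.9%, 71.2 to 82.0) were listed more than once. The intervals of short and longer circRNAs overlapped in every band of reads. Weighting the longer circRNAs' shares by the read bands of the short ones gave 18.8%, which lies inside the interval of the short circRNAs.

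**Figure D4:**
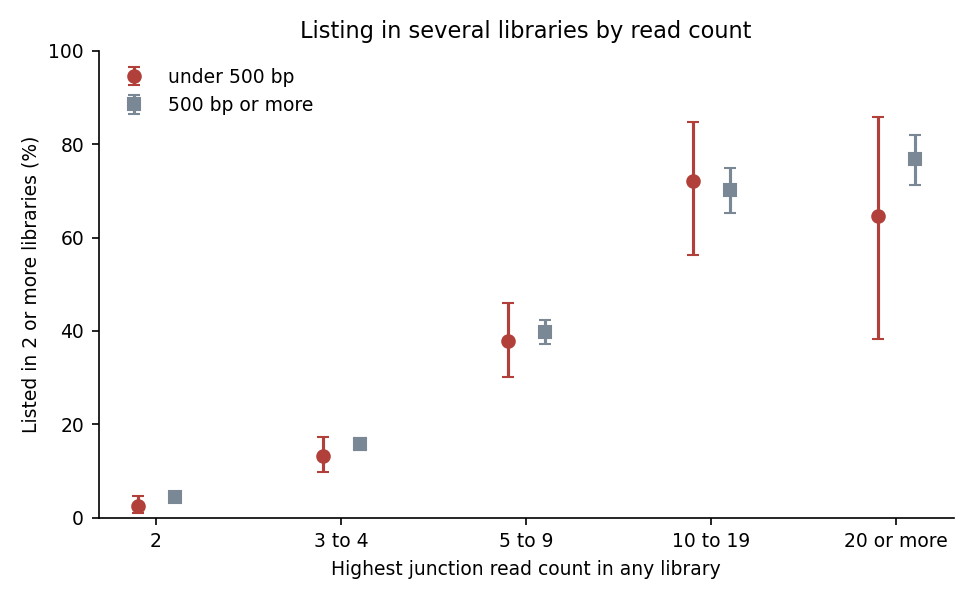
Share of circRNAs listed in 2 or more libraries against their highest junction read count in any library, for spans under 500 bp (red circles) and of 500 bp or more (grey squares), with exact 95% intervals. At 2 reads the share was 2.45% of the short and 4.37% of the longer ones, at 10 to 19 reads it was 72.1% of the short and 70.3% of the longer ones, and the intervals of the 2 sets overlap in each band.

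Within the short circRNAs, listing at several stages went with span. It was 9.52% under 100 bp (3.58 to 19.6), 8.82% from 100 to 199 bp (5.02 to 14.1), 14.5% from 200 to 299 bp (9.93 to 20.2), 20.5% from 300 to 399 bp (15.6 to 26.2) and 21.9% from 400 to 499 bp (17.0 to 27.5). The neighbouring band of 500 to 999 bp, with 616 circRNAs, had 24.0% (20.7 to 27.6), and spans of 1000 bp and more had 19.2% (18.4 to 20.1). These bands were not matched for reads. Below 500 bp the share that reached 10 reads in some library was 11.1% under 100 bp, 2.35% from 100 to 199 bp, 7% from 200 to 299 bp, 8.37% from 300 to 399 bp and 5.98% from 400 to 499 bp.

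Stages shared short circRNAs to different extents. The commonest sets listed nowhere else were 4.5 with 8 h (22 circRNAs), 8 with 48 h (17), 48 with 72 h (13) and all 5 stages (12). These counts are not scaled to the length of the lists, which was shortest at 24 h. Of the short circRNAs, 47 were listed at both 72 and 48 h, which is 25.1% of those at 72 h (19.1 to 32.0) and 16.3% of those at 48 h (12.2 to 21.1). For longer circRNAs the overlap was 25.8% of those at 72 h (23.9 to 27.8) and 23.5% of those at 48 h (21.8 to 25.4). The share of the 48 h list found again at 72 h thus had an interval below that of the longer circRNAs. It was 1 of 20 such shares over all 10 pairs of stages, and the intervals of the other 19 overlapped those of the longer circRNAs. At 48 and 8 h, 57 short circRNAs were shared, 19.8% of those at 48 h (15.3 to 24.9) and 20.1% of those at 8 h (15.6 to 25.2), against 18.2% and 14.9% of the longer ones. At 8 and 4.5 h, 53 were shared, 18.7% of those at 8 h and 19.9% of those at 4.5 h, against 21.8% and 23.5% of the longer ones. Of the 153 at 24 h, 28.1% were also listed at 48 h (21.1 to 35.9) and 27.5% at 8 h (20.6 to 35.2). A further comparison gave 24.2% at 72 h and 20.9% at 4.5 h. For longer circRNAs of 24 h these shares were 25.9% at 48 h, 25.5% at 8 h, 25.2% at 72 h and 22.8% at 4.5 h.

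The 12 short circRNAs listed at all 5 stages differed between their highest and lowest stage by a median of 5.66-fold, and the 107 longer ones by 4.47-fold. The steadiest was chr7:13759397-13759710 (314 bp), with 7, 11, 11, 13 and 7 reads from 4.5 to 72 h, a 1.87-fold range (0.694 to 5.54). The widest range was that of KN150127.1:3657-4045, with 22, 4398, 4, 129 and 1312 reads and a 931-fold range (363 to 3417). chr16:32233692-32234165 covered a 64.2-fold range (27.3 to 199) and chr17:3349985-3350375 a 34.7-fold range (9.30 to 291). Highest at 4.5 h were 5 of the 12, among them chr9:6974377-6974810, with 14, 11, 5, 4 and 2 reads, and chr1:484606-484819, with 10, 9, 3, 4 and 5. Highest at 48 h were chr24:36378343-36378676 (9, 4, 5, 19 and 5 reads), chr12:23924655-23925043 (4, 4, 3, 10 and 8), and the steadiest one. Highest at 72 h were chr6:39311620-39311864, with 2, 4, 11, 9 and 13 reads, and chr17:50188956-50189117, with 9, 13, 2, 10 and 16. The highest and lowest stages were picked by their values, which alone puts each range above 1, so these intervals do not test for change.

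Consecutive stages were compared as ratios of depth-scaled junction reads, the later stage on top, with exact conditional intervals. A circRNA entered with at least 10 reads over both libraries and was called at a ratio of 2 or more in either direction. One that was not listed was set at a floor of 3 reads for the ratio and at 1 read for the interval. For these, the fold after "at least" is the end of the interval nearest 1, and the floor ratio is the fold against 3 reads. Such a bound holds only if the junction was missing for want of reads, not because the caller put it elsewhere. Neighbouring comparisons share a library. Few short circRNAs had enough reads, and entry favours those that are high in 1 of the libraries.

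From 4.5 to 8 h, 49 of the 497 short circRNAs listed in either library entered. Of these, 14 were at least 2-fold higher at 8 h (28.6%, 16.6 to 43.3), against 19.9% of all 527 circRNAs that entered, and 18 were lower (36.7%, 23.4 to 51.7), against 49.9%. The intervals of the short circRNAs took in both background shares. Their median log2 ratio was -0.04, that of the longer ones -1.02 and that of all that entered -0.98. Among those listed in both libraries the median was -0.20 for 32 short circRNAs and -0.89 for 331 longer ones. Of the short calls, 10 higher and 7 lower rested on the floor of 3 reads. The largest ratios were those of KN150127.1:15984-16405, with 4025 reads at 8 h against 18 at 4.5 h (193-fold, 122 to 326), and 3657 to 4045, with 4398 against 22 (173-fold, 114 to 276). chr1:25967354-25967612, with 143 reads and not listed before, was at least 21.8-fold higher (floor ratio 41.1). The 39 bp circRNA of chr19:3217290-3217328 was at least 2.15-fold higher (floor ratio 4.60) with 16 reads, and chr1:29921634-29922052 had 15 reads at 8 h against 2 (6.47-fold, 1.51 to 58.3). chr16:32233692-32234165 had 16 reads at 8 h against 389 at 4.5 h, 28.2-fold lower (17.1 to 49.8). Not listed at 8 h were chr14:24794318-24794674 (at least 5.36-fold lower, floor ratio 10.8), chr2:37475635-37475916 (at least 3.71-fold, floor ratio 7.72), chr12:39445684-39446045 (at least 3.29-fold, floor ratio 6.95) and chr6:2034450-2034713 (at least 2.67-fold, floor ratio 5.79). However, chr12:39445680-39446045, with the same end and a start 4 bp away, had 4 reads at 8 h and was not listed at 4.5 h. Whether these 2 are 1 junction was not tested, so the bound of chr12:39445684-39446045 may not hold. The split of calls, 43.8% higher, became 55.2% with TMM factors (16 higher, 13 lower) and 61.3% with median-of-ratios factors (19 and 12). These factors removed log2 shifts of -0.49 and -0.70, which raised every ratio. With each library scaled by its total of junction reads, 14 were higher and 19 lower. The 8 h total used there was 24065 reads with scaffold KN150127.1 and 15611 without it. Scaling by totals without the scaffold was not tested.

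From 8 to 24 h, 38 of the 395 short circRNAs listed in either library entered. At 24 h 7 were higher (18.4%, 7.74 to 34.3), against 24.4% of all 377, and 20 lower (52.6%, 35.8 to 69.0), against 44.3%. The median log2 ratio was -1.42 for the short circRNAs and -0.76 for the longer ones. Among those listed in both libraries it was -0.57 for 27 short circRNAs and -0.39 for 215 longer ones. Of the short calls, 2 higher and 9 lower rested on the floor. On the scaffold, 15984 to 16405 was not listed at 24 h and was at least 611-fold lower (floor ratio 1136), and 3657 to 4045 had 4 reads at 24 h against 4398, 931-fold lower (363 to 3417). chr17:3349985-3350375 had 7 reads against 81, 9.79-fold lower (4.54 to 25.1), and chr24:29130286-29130771 and chr21:8393705-8394005 were at least 3.62-fold (floor ratio 7.34) and 2.41-fold lower (floor ratio 5.08). Higher at 24 h were circRNAs of 60 bp and 24 bp, chr6:60017750-60017809 (13 reads, at least 2.31-fold, floor ratio 5.12), and chr16:42037202-42037225 (11 reads, at least 1.89-fold, floor ratio 4.33). chr16:32233692-32234165 had 36 reads at 24 h against 16 (2.66-fold, 1.44 to 5.13), and chr16:44716469-44716755 had 14 against 5 (3.31-fold, 1.13 to 11.7). chr6:39311620-39311864 had 11 against 4, and its interval took in 1 (3.25-fold, 0.963 to 14.0). With each library scaled by its total of junction reads, 61.9% of the calls were higher (13 higher, 8 lower) instead of 25.9%. This scaling removed a log2 shift of -1.12, which raised every ratio. The 8 h total behind it, 24065 reads, was 15611 without scaffold KN150127.1. Scaling by totals without the scaffold was not tested. TMM factors gave 28.6% (8 higher, 20 lower) and median-of-ratios factors 25.9% (7 and 20).

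From 24 to 48 h, 29 of 398 short circRNAs entered. At 48 h 15 were higher (51.7%, 32.5 to 70.6), against 43.4% of all 341, and 7 lower (24.1%, 10.3 to 43.5), against 22.3%. The median log2 ratio was 1.15 for the short circRNAs and 0.66 for the longer ones. Among those listed in both libraries it was 0.66 for 17 short circRNAs and 0.57 for 214 longer ones. Of the short calls, 9 higher and 3 lower rested on the floor. chr6:39312756-39313067, with 98 reads, was at least 17.0-fold higher (floor ratio 32.3), chr19:41413107-41413353 at least 14.8-fold (floor ratio 28.3), chr6:52816786-52817273 at least 5.10-fold (floor ratio 10.2) and chr24:1165403-1165817, with 16 reads, at least 2.46-fold (floor ratio 5.27). The scaffold circRNA 3657 to 4045 had 129 reads at 48 h against 4 (31.9-fold, 12.1 to 119). chr1:25967354-25967612 was at least 11.8-fold lower (floor ratio 22.6), chr15:11886656-11887060 at least 2.52-fold (floor ratio 5.40) and chr6:60017750-60017809 at least 1.98-fold (floor ratio 4.39). chr16:32233692-32234165 had 13 reads against 36 (2.80-fold lower, 1.45 to 5.76), and chr16:44716469-44716755 had 6 against 14, with an interval that took in 1 (2.36-fold lower, 0.853 to 7.50). With each library scaled by its total of junction reads, every ratio was lower by a log2 shift of 0.71, and 14 short circRNAs were higher and 9 lower.

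From 48 to 72 h, 33 of 428 short circRNAs entered. At 72 h 9 were higher (27.3%, 13.3 to 45.5), against 34.1% of all 417, and 12 lower (36.4%, 20.4 to 54.9), against 21.8%. Their median log2 ratio was -0.41, that of the longer ones 0.39 and that of all that entered 0.30. Among those listed in both libraries the median was -0.37 for 22 short circRNAs and 0.27 for 293 longer ones. Of the short calls, 5 higher and 6 lower rested on the floor. chr7:29689001-29689068 was at least 11.2-fold higher (floor ratio 21.6), KN150442.1:35836-35898 at least 5.57-fold (floor ratio 11.2), and chr20:49748344-49748702 at least 3.20-fold (floor ratio 6.81). chr1:25967354-25967612, listed again with 17 reads, was also at least 3.20-fold higher (floor ratio 6.81). The scaffold circRNA 3657 to 4045 had 1312 reads at 72 h against 129 (12.2-fold, 10.2 to 14.8). The 3 circRNAs that had appeared at 48 h, chr6:39312756-39313067, chr19:41413107-41413353, and chr6:52816786-52817273 were at least 14.3-fold (floor ratio 27.2), 12.5-fold (floor ratio 23.8) and 4.30-fold lower (floor ratio 8.60). chr16:42037202-42037225 was at least 2.51-fold lower (floor ratio 5.27) and chr23:32108071-32108329 at least 1.33-fold (floor ratio 3.05). With scaling by the library totals, 28.6% of the calls were higher (6 higher, 15 lower) instead of 42.9%. This scaling removed a log2 shift of 0.51, which lowered every ratio. TMM factors gave 39.1% (9 higher, 14 lower) and median-of-ratios factors 36.4% (8 and 14).

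**Figure D5:**
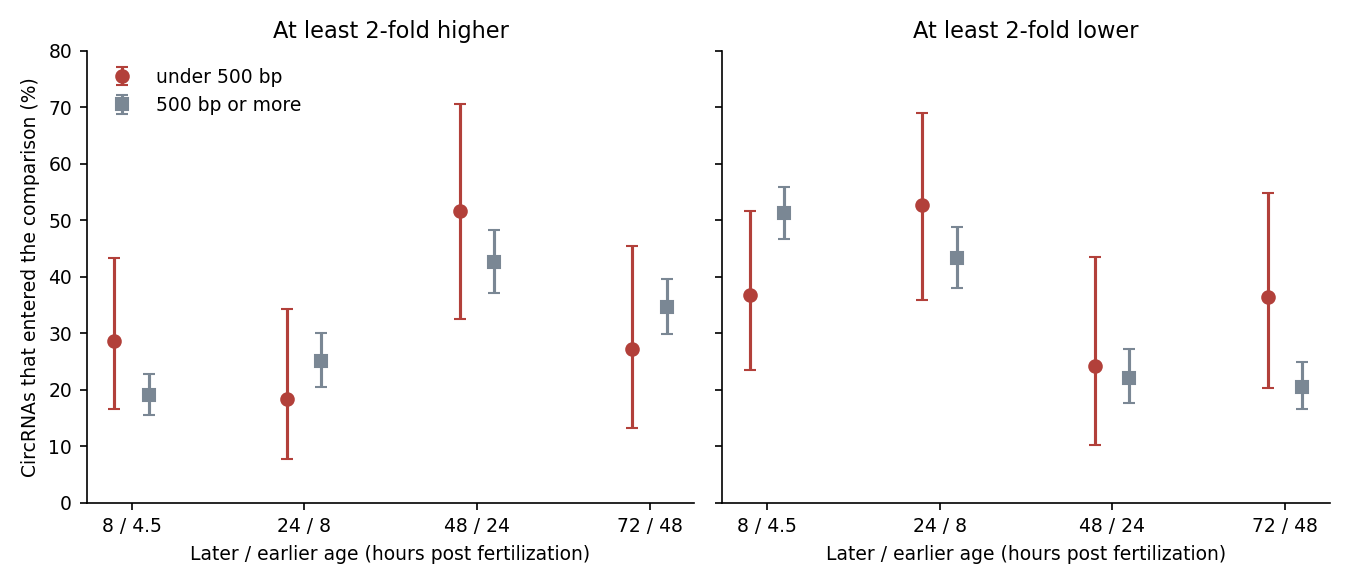
Share of the circRNAs that entered each comparison of consecutive stages and were at least 2-fold higher (left) or lower (right) at the later age, for spans under 500 bp (red circles) and of 500 bp or more (grey squares), per depth, with exact 95% intervals. The intervals of the short circRNAs are wide, as 29 to 49 of them entered, and they overlap those of the longer circRNAs in all 4 comparisons.

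By chromosome, the share of circRNAs that were short ranged from 6.46% on chromosome 25 (19 of 294, 3.94 to 9.91) to 14.0% on chromosome 1 (57 of 406, 10.8 to 17.8), with a median of 9.40% over the 24 numbered chromosomes. The interval took in the share of the whole list, 9.97%, on 21 of them. The exceptions were chromosomes 1 and 12, with 13.3% on chromosome 12 (49 of 369, 9.99 to 17.2), and chromosome 25. On chromosomes 12 and 25 the interval missed that share narrowly, and among 24 intervals some can miss by counting error alone. Along chromosome 1 the short circRNAs lay in every stretch of 10 Mb, with 6 to 13 in each. Unplaced scaffolds held 25 short circRNAs of 152 (16.4%, 10.9 to 23.3) on 21 different scaffolds, and 10082 of the 15594 reads on short circRNAs, 9910 of them on KN150127.1. The mitochondrial genome had 2 short circRNAs of 5, at 6423 to 6871 with 9 reads at 8 h and at 5691 to 6006 with 2 reads at 48 h.

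Some short circRNAs lay where a longer circRNA was also listed. Of the 923, 240 overlapped one of 500 bp or more (26.0%, 23.2 to 29.0), and 227 lay wholly inside one. Against the same set of circRNAs of 1000 bp and more, 25.0% of short circRNAs (22.3 to 28.0) and 21.1% of those of 500 to 999 bp (17.9 to 24.5) overlapped. Where a short circRNA overlapped longer ones, their number had a median of 1 and reached 7, and the smallest had a median span of 10126 bp. In 124 of the 240 cases (51.7%) both were listed in the same library. The short circRNA had more reads over all libraries than every overlapping longer one in 81 cases, and as many as the highest in 43. Listing in 2 or more libraries was 17.9% for the overlapping ones (13.3 to 23.4) and 16.3% for the other 683 (13.6 to 19.2).

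Shared back-splice ends had a lower share among the short circRNAs than among those of 1000 bp and more, and a similar one in the neighbouring band of spans. An identical start or end on the same chromosome was found for 152 short circRNAs (16.5%, 14.1 to 19.02), for 15.4% of those of 500 to 999 bp (12.7 to 18.5) and for 30.9% of those of 1000 bp and more (29.8 to 31.9). For 135 of the 152 the partner, or one of them, was longer. On KN150127.1, the start at 3657 was used by the short circRNA and 4 longer ones, among them 3657 to 22829 with 565 reads at 72 h and 3657 to 6633 with 112 reads at 48 h. The end at 16405 was used by the other short circRNA, by 3657 to 16405 with 12 reads at 8 h and by 6310 to 16405 with 7 reads at 72 h.

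Few short circRNAs had another short one within 10 kb. A second short circRNA had its midpoint within that distance for 75 of them (8.13%, 6.44 to 10.1). Of the longer circRNAs, which are 8336 and so lie denser, 35.5% had another longer one that near. The 2 shares are thus not on one scale, and whether either set clusters beyond even placement was not tested. Chained at 10 kb, the 923 formed 848 singles, 31 pairs, 3 groups of 3 and 1 group of 4. The group of 4 was at chr24:411975-412270, where all 4 used the same end and their starts lay at 411975, 411979, 411983 and 412092, with 2 to 6 reads each, at 24 h, 48 h, 8 h and 48 h. The circRNA at chr1:25967354-25967612 overlapped 25967500 to 25967589 (9, 10 and 7 reads at 4.5, 8 and 24 h) and 25967545 to 25967720 (4 reads at 24 h), with no end in common. The circRNA at chr6:39311620-39311864, listed at every stage, lay near 39312756 to 39313067, listed at 48 h alone, and 39315372 to 39315465 (2 reads at 48 h). The circRNAs at KN150442.1:35503-35592 and 35676 to 35746 had 2 and 10 reads at 8 h, and 35836 to 35898 had its 28 reads at 72 h. The circRNA at KN150127.1:3558-4045, with 2 reads at 72 h, ended at the same base as 3657 to 4045. In all, 18 pairs of short circRNAs overlapped each other, 12 with the same end, 2 with the same start and 4 with neither, and in 8 pairs both were listed in the same library. Whether overlapping pairs with a start a few bases apart are separate rings or 1 junction placed at different positions was not tested.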

How the data were processed

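Junction reads were measured in 5 libraries, 1 per stage, grouped by the ages in the labels. The deposited library tables give whole counts of back-splice junction reads per circRNA, not normalized, with 2 as the lowest listed. The authors' series table holds the same counts (0 mismatches) and a score, SRPBM, for the 1829 circRNAs in at least 2 libraries. Within a library SRPBM was the count times 1 constant, from 0.0872 to 0.122 per read, and these constants gave the depths. Of the authors' tools, the submitters' processing notes list BWA (0.7.5a-r405) and edgeR (3.12.1) but no roles. No source used here names the circRNA caller, its filters or the build, so positions are those of the files. Library totals without chromosome 4 ran from 9399 to 24065 junction reads. These reads carry no molecular identifiers, so intervals on reads may be too narrow.

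Shares carry exact Clopper-Pearson intervals, levels exact Poisson intervals and ratios exact conditional intervals. They were computed in Python 3.11.15 using scipy 1.17.1, with pandas 2.3.3 and numpy 2.4.6. TMM factors were taken from edgeR (4.0.16, under R 4.3.3) and plots were made in matplotlib 3.10.9. No p-value was computed, since no stage had a replicate. The calculation of ratios was tested on simulated data. These were independent Poisson counts, the model behind the intervals, and the intervals were checked only where both libraries had reads. Bounds for circRNAs not listed in a library were thus not checked. The circRNAs named were the 5 with most reads per library, those in all 5 libraries and the 3 shortest. Also named were the 3 on either side of 500 bp and the first 5 groups within 10 kb. These groups were ranked by number of members and then by reads. From each comparison came the 5 higher and 5 lower circRNAs whose interval end nearest 1 lay farthest from 1. The mitochondrial circRNAs and the longer circRNAs of KN150127.1 were named after their values were seen. The selection, the lists and the comparisons were chosen with earlier results of these data known.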

Additional observations from a re-analysis of the deposited data

How the results depend on the processing

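The counts of short circRNAs per library stayed within 1.5 times without unplaced scaffolds and when scaled down to the lowest depth. The share of listed circRNAs that were short stayed within its interval at every stage with at least 5 reads (added after the values were seen). No paired analysis was possible because each stage had 1 library. Listing in 2 or more libraries ranged from 14.5% to 16.2% without each library in turn, and the share of spans divisible by 3 from 36.4% to 37.98%. Divisibility and its alternatives were added later, with the spans known: 44.6% where a library reached 5 reads, 32.5% when listed in 2 or more libraries and 34.5% from 200 to 499 bp. With at least 5 reads, 83, 72, 29, 70 and 41 short circRNAs were listed from 4.5 to 72 h, and under 300 bp 139, 132, 65, 104 and 74. Their share of reads with at least 5 reads was 7.88%, 50.4%, 5.41%, 7.92% and 11.9%, and without the 2 with most reads 6.27%, 8.80%, 5.67%, 7.91% and 4.10%. Without KN150127.1 it was 8.82% at 8 h and 4.56% at 72 h. Listing with 5 reads in each library was 24.4%. Overlap with longer circRNAs was 20.2% for those of at most 50 kb and 10.3% with at least 5 reads. Ends shared within 1 library were found for 7.80%. Neighbours within 1 kb and 100 kb were found for 4.12% and 21.6%. With at least 5 reads, the share that was short was 4.65%, 5.26%, 17.4%, 12.2%, 4.72% and 3.16% on chromosomes 2, 3, 6, 7, 8 and 15, 16.1%, 6.67%, 4.49%, 6.60% and 1.47% on 17, 18, 22, 23 and 25, 25.6% on scaffolds, and 100% on the mitochondrial genome, where 1 circRNA was left.

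The counts of calls that follow are of short circRNAs alone. No share over all circRNAs is given at these settings, so the counts cannot be compared with the list as a whole. At 8 over 4.5 h, higher and lower calls numbered 4 and 8 with at least 20 reads, 24 and 46 with at least 5, and 5 and 10 at a ratio of 4. At 24 over 8 h they numbered 13 and 8 when scaled to total junction reads, a total that at 8 h includes scaffold KN150127.1. The calls numbered 1 and 5 with at least 20 reads, and 2 and 11 at a ratio of 4. Higher calls numbered 14 with at least 5 reads and 4 where the interval excluded 1. At 48 over 24 h they numbered 5 and 3 with at least 20 reads, 30 and 18 with at least 5, and 8 and 3 at a ratio of 4, with 4 lower where the interval excluded 1. At 72 over 48 h they numbered 4 and 4 with at least 20 reads and 29 and 19 with at least 5, with 5 lower at a ratio of 4 and 7 lower where the interval excluded 1. No named ratio changed direction under the 3 other scalings. The lowest count listed in any library was 2 reads, so depth limits every count of stages.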
